A study of Mus musculus with 28 samples.

Results

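The genes described here are those named as protein subunits of the mitochondrial respiratory chain and ATP synthase, from both the nuclear and the mitochondrial genome. They were taken by symbol from both deposited count matrices: the Ndufa, Ndufb, Ndufc, Ndufs and Ndufv subunits of complex I, Sdha to Sdhd of complex II, the Uqcr subunits of complex III, the Cox4 to Cox8 subunits of complex IV, the Atp5 subunits of complex V, and the mt- genes for Nd, Cytb, Co and Atp proteins. The symbols matched 109 of the 55341 genes listed. Of these, 8 carried the pseudogene mark -ps and 4 were under 10 counts in every tumor, which left 97 members. The nuclear genome held 84 of them (38 in complex I, 4 in complex II, 8 in complex III, 17 in complex IV and 17 in complex V) and mitochondrial DNA held 13 (7 in complex I, 1 in complex III, 3 in complex IV and 2 in complex V). Just outside the threshold were Cox7b2, Ndufa11b and Ndufs6b, each with at most 1 count in any tumor, and Cox8c with 0. Just inside it were Cox6b2, with a highest count of 31, and Cox4i2, with 85. The members Ndufb4c and Cox6c2 are annotated as processed pseudogenes but lack the -ps mark. Ndufb1-ps was left out by its mark, though it had 1124 to 6046 counts per tumor.

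The respiratory chain of the inner mitochondrial membrane carries electrons from NADH at complex I and from succinate at complex II through complex III and cytochrome c to oxygen at complex IV. The proton gradient that complexes I, III and IV build drives complex V, which makes ATP. Mitochondrial DNA is transcribed inside the organelle into long precursors that carry many genes and codes for core subunits of every complex except complex II, while nuclear genes supply all other subunits. Several complex IV subunits exist as paired isoforms, and Cox6a2, Cox7a1 and Cox8b are the forms typical of heart and skeletal muscle.

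RNA was sequenced from 28 subcutaneous tumors of AB1-HA, a mouse mesothelioma cell line, grown on the flank of female BALB/c mice aged 8 to 10 weeks. Mice received PBS (4 tumors), immune checkpoint blockade (ICB, antibodies to CTLA-4 and PD-L1; 5), 5-FU at 75 mg/kg (5), cisplatin at 6 mg/kg (4), 5-FU+ICB (5) or cisplatin+ICB (5). Anti-CTLA-4 was given in 1 dose and anti-PD-L1 in 3, each of 100.0 µg, and tumors were taken 7 days after treatment began. All groups carry grafts of the same line, and whole tumors were extracted, so that host stroma, infiltrating leukocytes and any attached flank tissue are in every library. In such bulk RNA, fewer cells of a type and less RNA per cell cannot be told apart. The study asked how each chemotherapy changes the tumor when it is added to ICB, and the comparisons below take each treatment against PBS and each combination against its parts.

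Each library held 23541733 to 33950805 counts. Counting error was small at such totals, since 95% Wilson intervals for the mt- share spanned at most 0.0281 percentage points, and the spread between tumors limits the shares given here. 1 library stood apart in its markers. Msln, which codes for mesothelin and marks mesothelioma, measured 271 to 358 CPM (counts of a gene relative to the scaled library total) in PBS tumors and at least 34.4 CPM in 27 libraries, but 0.50 CPM in the library labelled 5-FU+ICB tumor 5. That library held 27.2, 33.4 and 48.9 CPM of the epithelial keratins Krt18, Krt8 and Krt19, where the other 27 had at most 1.52 CPM of Krt18, 9.34 of Krt8 and 1.86 of Krt19. These keratins, Msln and Wt1 together form the list of line markers used below. The list summed to 111 CPM in this library, within the 37.8 to 169 CPM of the 5-FU+ICB group. Wt1, Krt18 and Krt19 were near 0 in PBS tumors. How much tumor tissue this library holds was not tested, and member counts, medians and the fold changes of named members in 5-FU+ICB are given with and without it. There were also 6 libraries, this one among them, that stood apart in transcript length. Genes other than the members whose longest transcript is at most 1000 nt took 9.59% of the nuclear counts in PBS tumor 1, 11.3% in PBS tumor 2, 8.51% and 9.65% in cisplatin tumors 2 and 4, 11.4% in 5-FU+ICB tumor 5 and 16.0% in cisplatin+ICB tumor 1, against 5.83% to 7.40% in the other 22. Of the nuclear members 43 of 84 are themselves this short (with a median longest transcript of 988.5 nt against 3113 nt over all genes). Member counts and medians below are also given without these 6 tumors, a choice made after seeing the data. Leaving them out leaves PBS with 2 tumors.

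The 84 nuclear members together took 1.28, 1.61, 1.03 and 1.09% of the counts in PBS tumors 1 to 4. In ICB tumors the same sum was 0.851, 0.799, 0.891, 0.881 and 0.867%, and in 5-FU tumors it was 0.857, 0.879, 0.854, 0.852 and 0.813%. All ICB and 5-FU tumors thus lay below all PBS tumors, and this also held against PBS tumors 3 and 4, which were not rich in short transcripts. The nuclear share was 0.861, 1.26, 1.02 and 1.32% in cisplatin tumors, 0.837, 0.898, 0.882, 0.764 and 0.932% in 5-FU+ICB tumors and 2.08, 0.739, 0.851, 0.807 and 0.838% in cisplatin+ICB tumors. Cisplatin tumors overlapped PBS tumors, all 5-FU+ICB tumors lay below them, and cisplatin+ICB tumor 1 held more nuclear member RNA than any other tumor while the other 4 of its group lay below PBS. Of the 6 tumors rich in short transcripts, 5 had nuclear shares above 1.2% and the sixth, 5-FU+ICB tumor 5, had the highest share of its group.

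The 13 mt- members showed the opposite order of ICB, 5-FU and PBS. They took 1.58, 1.52, 2.04 and 2.35% of the counts in PBS tumors. The mt- share was 3.19, 2.65, 4.52, 2.75 and 4.75% with ICB and 2.7, 3.02, 6.71, 3.38 and 3.35% with 5-FU, and in both groups every tumor lay above every PBS tumor. It was 2.74, 1.77, 1.71 and 1.73% in cisplatin tumors, where only tumor 1 exceeded the PBS range. In 5-FU+ICB tumors the share was 4.86, 2.32, 4.63, 3.49 and 15.7%, with tumor 2 inside the PBS range and the library labelled tumor 5, which almost lacks Msln, far above every other. In cisplatin+ICB tumors it was 1.01, 3.46, 3.21, 3.71 and 3.94%, and tumor 1, the lowest of all 28, was the same tumor that had the highest nuclear share.

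**Figure D1:**
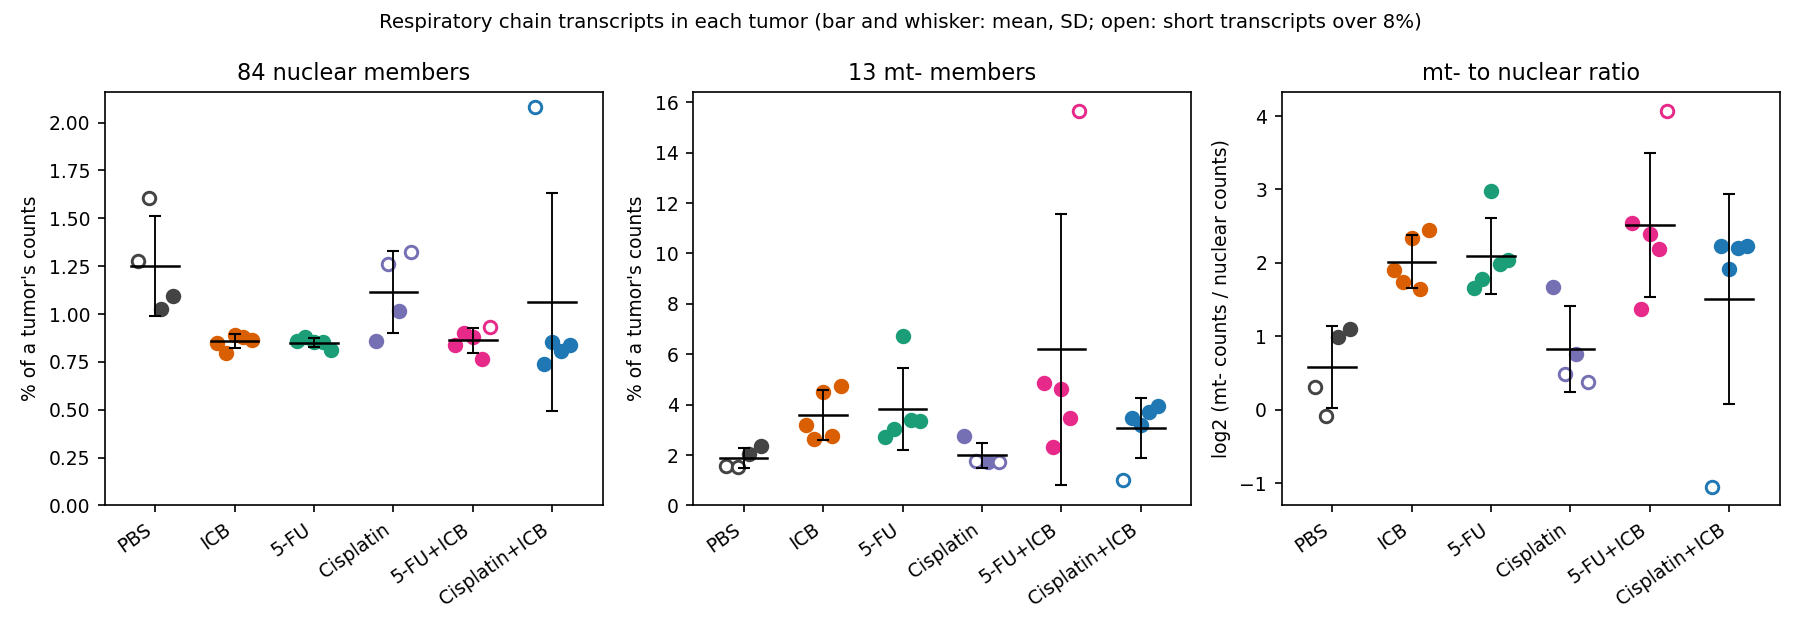
Share of each tumor's counts in the nuclear members, in the mt- members, and the log2 ratio of mt- to nuclear counts (y axes), by treatment group (x axis). Points are tumors, open points are the 6 tumors rich in short transcripts, and bars with whiskers are the mean and SD. The ratio is higher in every ICB, 5-FU and 5-FU+ICB tumor than in any PBS tumor.

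The log2 ratio of mt- to nuclear member counts within a tumor does not depend on how libraries are scaled. It was 0.31, -0.08, 0.99 and 1.10 in PBS tumors, with a mean of 0.58 ± 0.56 (SD, n = 4). Means were 2.02 ± 0.36 with ICB (n = 5), 2.09 ± 0.52 with 5-FU (n = 5) and 2.51 ± 0.98 with 5-FU+ICB (n = 5), and none of these groups overlapped PBS. Against PBS the differences were 1.44, 1.51 and 1.93 on the log2 scale, or 2.70-fold, 2.85-fold and 3.82-fold. The cisplatin mean of 0.82 ± 0.59 (SD, n = 4) and the cisplatin+ICB mean of 1.51 ± 1.43 (SD, n = 5) came from groups that overlapped PBS, with differences of 0.24 and 0.93. Without the 6 tumors rich in short transcripts, the differences from PBS were 0.97 for ICB, 1.04 for 5-FU, 1.08 for 5-FU+ICB, 1.10 for cisplatin+ICB and 0.17 for cisplatin. Without the library labelled 5-FU+ICB tumor 5 alone, the 5-FU+ICB difference was 1.54. A score over the members was given no test. All comparisons with PBS share its 4 tumors.

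**Figure D2:**
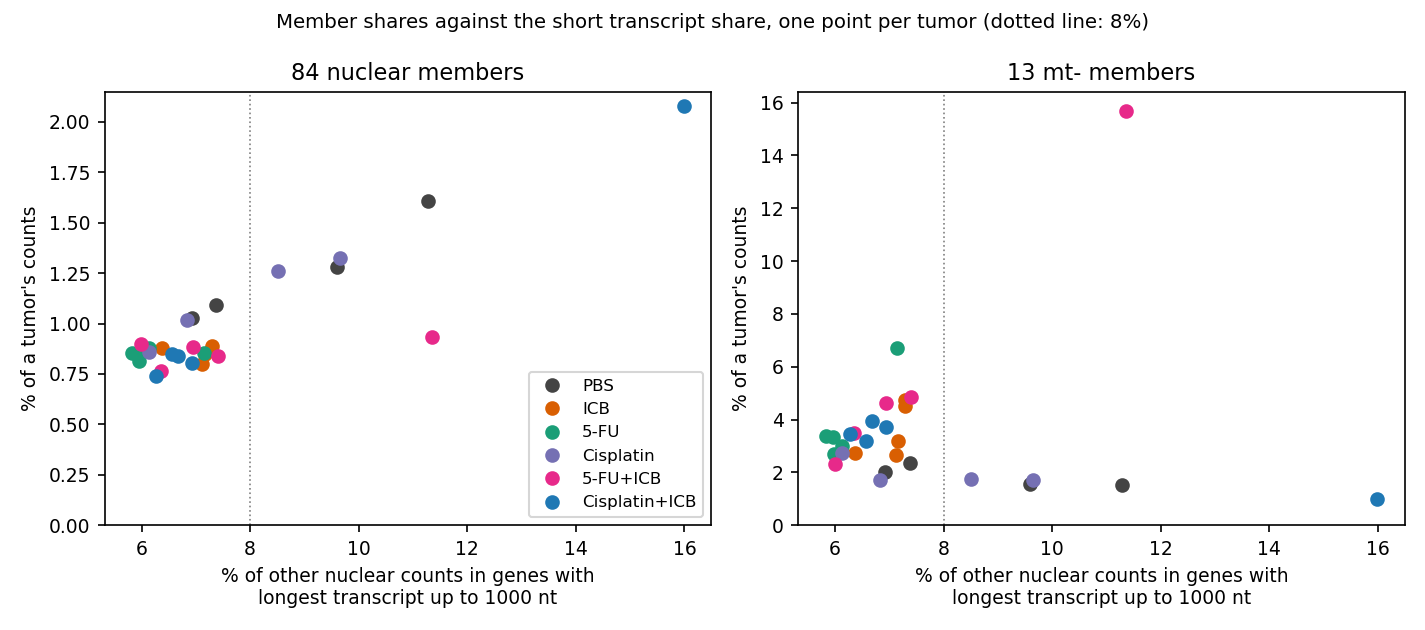
Shares of counts in the nuclear members and in the mt- members (y axes, % of a tumor's counts) against the short transcript share (x axis, % of the other nuclear counts), 1 point per tumor, colored by treatment. Of the 6 tumors to the right of the dotted line at 8%, all but the library labelled 5-FU+ICB tumor 5 have nuclear shares above 1.2%, and cisplatin+ICB tumor 1 combines the largest short transcript share with the largest nuclear and the smallest mt- share.

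The comparison of ICB with PBS asked what checkpoint blockade alone did to the tumor. In edgeR's quasi-likelihood fit, with p-values adjusted by Benjamini-Hochberg across 17912 genes, 41 of the 84 nuclear members were called lower and 1 higher (adjusted p under 0.05 and a log2 fold change beyond 0.5), with a median log2 fold change of -0.55 against -0.03 over all genes tested. Among all genes tested, 18.8% were called lower and 19.0% higher. Groups did not overlap for 41 nuclear members that were lower, against 21.6% of all genes tested. The calls were spread over the complexes, at 20 of 38 in complex I, 1 of 4 in complex II, 5 of 8 in complex III, 6 of 17 in complex IV and 9 of 17 in complex V. Described next is the largest fall called in each complex among members with a mean of at least 50 counts.

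Ndufa4 (chr6:11900292-11907497 in GRCm38), named as a complex I subunit and now placed in complex IV, measured 187, 237, 114 and 127 CPM in PBS tumors and 70.0, 53.5, 83.0, 71.7 and 78.6 CPM in ICB tumors. The groups did not overlap, and the log2 fold change was -1.22 ± 0.23 (SE; adjusted p = 0.000877), a 2.33-fold lower level. Atp5g3 (chr2:73908447-73911326), which codes for the c subunit of the rotor ring of ATP synthase, measured 668, 672, 439 and 435 CPM with PBS and 272, 204, 269, 324 and 337 CPM with ICB. It too did not overlap, at -0.97 ± 0.20 (SE; adjusted p = 0.00154). Uqcr10 (chr11:4701973-4704342), a small subunit of complex III, measured 73.4 to 143 CPM in PBS tumors and 50.6 to 63.1 CPM in ICB tumors, with a log2 fold change of -0.84 ± 0.19 (SE; adjusted p = 0.00315). Cox4i1 (chr8:120668222-120674207), the common form of complex IV subunit 4, measured 348 to 739 CPM with PBS and 271 to 341 CPM with ICB, at -0.68 ± 0.24 (SE; adjusted p = 0.0337). Sdhb, the iron-sulfur subunit of succinate dehydrogenase, was the complex II member called lower, at -0.65 ± 0.20 (SE; adjusted p = 0.0131), though its ranges of 153 to 328 CPM with PBS and 122 to 161 CPM with ICB overlapped.

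The nuclear member called higher was Ndufa4l2 (chr10:127514967-127517154), a paralog of Ndufa4 known as a hypoxia-induced gene that lowers complex I activity. It measured 1.78, 2.14, 1.73 and 1.4 CPM in PBS tumors and 3.51, 6.57, 4.42, 1.71 and 4.08 CPM in ICB tumors. These are low levels with some overlap, and the log2 fold change was 1.23 ± 0.38 (SE; adjusted p = 0.0168). Its level in ICB tumor 4 lay within the PBS range.

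All 13 mt- members had a positive log2 fold change with ICB, from 0.19 to 1.52 with a median of 0.91, and 4 were called higher. In 7 of them the groups did not overlap, against 15.8% of all genes tested for which ICB lay wholly above PBS. The 4 called were complex I subunits that lie next to each other on mitochondrial DNA. mt-Nd4 (chrM:10167-11544) measured 653, 551, 1510.3 and 1481 CPM with PBS and 2099, 1653, 3574, 1976 and 3930.0 CPM with ICB, at 1.38 ± 0.54 (SE; adjusted p = 0.0461). mt-Nd4l (chrM:9877-10173), whose coding sequence runs into that of mt-Nd4, was at 1.47 ± 0.57 (SE; adjusted p = 0.0458), mt-Nd5 (chrM:11742-13565) at 1.5 ± 0.56 (SE; adjusted p = 0.0393) and mt-Nd6 (chrM:13552-14070), which is read from the other strand, at 1.52 ± 0.53 (SE; adjusted p = 0.0294). PBS tumors 1 and 2 were the low ones for all 4. mt-Co1, the catalytic subunit of complex IV, had 1.26 ± 0.55 (SE; adjusted p = 0.0709) and was not called. The sign of mt-Nd3 turned without ICB tumor 3 (-0.032) and with a replicate block (-0.17).

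These counts depended on single tumors. The ICB counts were 16 nuclear members without PBS tumor 2 and 25 without ICB tumor 2, where 12.6% and 13.6% of all genes tested were called lower. For mt- members they were 0 without PBS tumor 1, PBS tumor 2, ICB tumor 3 or ICB tumor 5, where 14.4%, 15.8%, 16.2% and 17.3% were called higher, and 2 without ICB tumor 1, where 18.8% were. Without the 6 tumors rich in short transcripts, 3 nuclear members and 0 mt- members were called, where 8.72% of all genes tested were lower and 11.3% higher, and edgeR gave an unadjusted p under 0.05 for 22 and 3 members and 41.2% of all genes. The medians were then -0.17 for nuclear and 0.90 for mt- members, so that the nuclear median came closer to 0 and the mt- median stayed within 0.02 of its value over all tumors. The same 9 PBS and ICB tumors gave 4 nuclear calls when fitted with the cisplatin groups in place of the 5-FU groups and 8 when all 6 groups were fitted together, where 5-FU gave 2 and 5-FU+ICB 10. Of all genes tested, 10.7% were lower with ICB in the first of these fits, and 12.5% with ICB, 1.61% with 5-FU and 12.5% with 5-FU+ICB in the second, so that the nuclear shares lay near or below those over all genes. Each model shares 1 estimate of the spread over its groups, and the cause of the difference was not tested. With the short transcript share as a covariate, 10 nuclear and 11 mt- members were called, where 21.7% of all genes were lower and 23.7% higher, with medians of -0.20 and 1.55. The 5 falls named above shrank without those tumors, Ndufa4 to -0.68 and Sdhb to -0.13, while Ndufa4l2 stood at 1.47. ICB tumor 2 also stood apart in its keratinocyte markers, which summed to 447 CPM against at most 20.4 CPM in the other 27 libraries. The part of transcript length or skin content in the nuclear fall was not tested further.

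**Figure D3:**
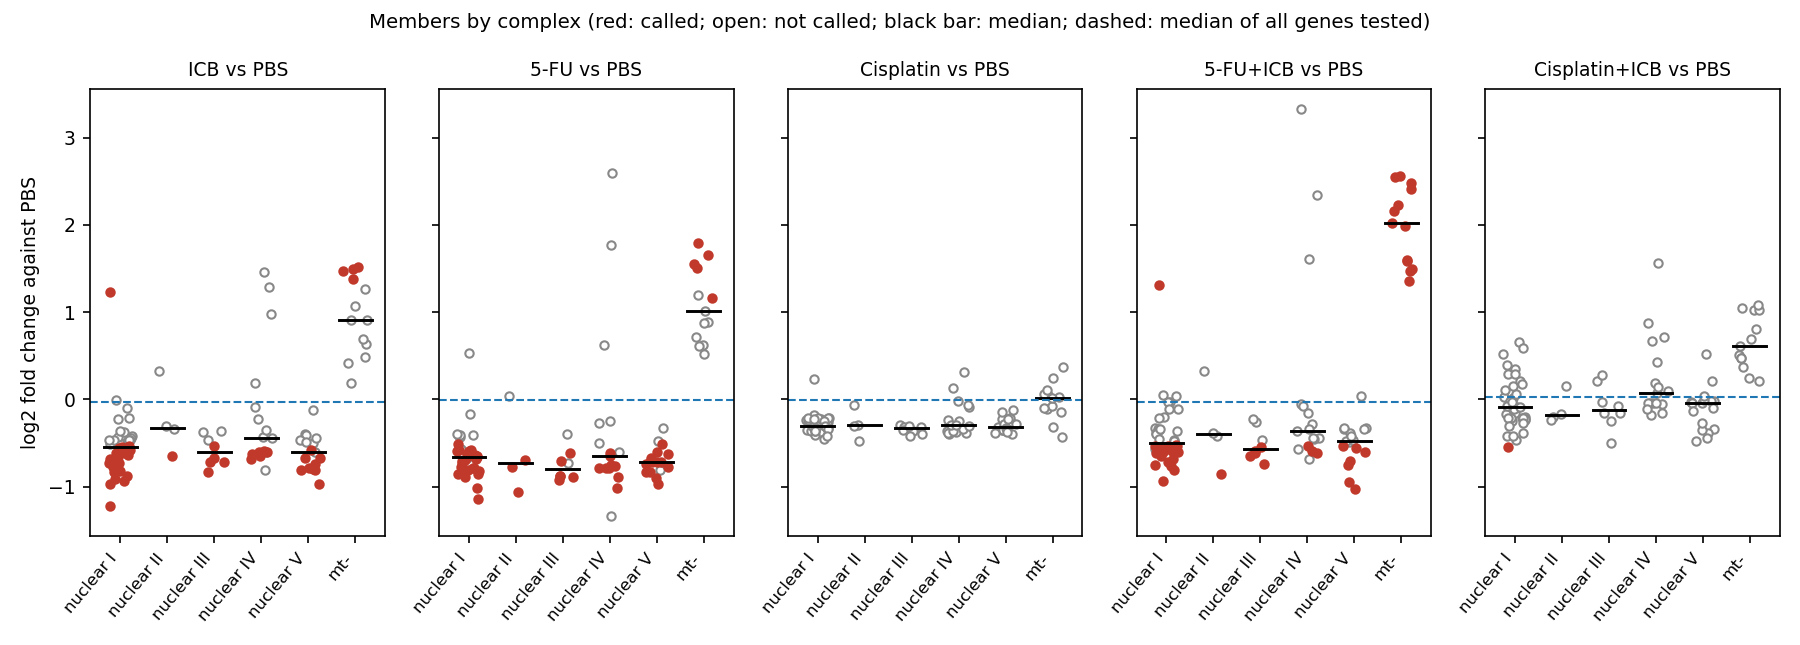
Log2 fold change against PBS (y axis) of each nuclear member by complex and of the mt- members (x axis), in panels by treatment. Filled red points are called, open points are not, black bars are medians, and the dashed line is the median of all genes tested. Nuclear medians lie below the dashed line with ICB, 5-FU and 5-FU+ICB, where mt- members lie above it, and no member is called with cisplatin.

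With 5-FU alone most nuclear members were called lower. Of the 84 nuclear members 60 were called lower and 0 higher against PBS, with a median log2 fold change of -0.70 against -0.01 over all genes tested, where 13.0% were lower and 9.98% higher. Groups did not overlap for 51 nuclear members, all lower, against 17.8% of all genes tested. By complex the calls were 28 of 38, 3 of 4, 6 of 8, 9 of 17 and 14 of 17 for complexes I to V, and the medians lay between -0.80 for complex III and -0.65 for complex IV. Among members with a mean of at least 50 counts, the largest fall called in each complex was that of Ndufa7, Sdhb, Uqcrq, Cox4i1 and Atp5c1, and none of these 5 overlapped PBS.

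Ndufa7 (chr17:33824572-33838317), an accessory subunit of complex I, measured 100.1, 155, 61.9 and 68.9 CPM with PBS and 41.5, 44.1, 50.3, 42.2 and 43.3 CPM with 5-FU. Its log2 fold change was -1.14 ± 0.23 (SE; adjusted p = 0.00458). Sdhb (chr4:140961203-140979193) measured 217, 328, 164 and 153 CPM with PBS and 102, 116, 111, 96.3 and 95.3 CPM with 5-FU, a log2 fold change of -1.06 ± 0.20 (SE; adjusted p = 0.00342). The 5-FU tumors lay close together for both genes, and most of the spread was within PBS, where tumor 2 was highest. Cox4i1 measured 511, 739, 348 and 349 CPM with PBS and 223, 247, 297, 228 and 217 CPM with 5-FU and was 2.03-fold lower, at -1.02 ± 0.25 (SE; adjusted p = 0.0095). Atp5c1 (chr2:10056016-10080510), the central stalk subunit that turns inside ATP synthase, changed by -0.97 ± 0.20 (SE; adjusted p = 0.00555), and Uqcrq, a small subunit of complex III, by -0.92 ± 0.23 (SE; adjusted p = 0.0117). Without the 6 tumors rich in short transcripts the 5 log2 fold changes were smaller, between -0.52 for Sdhb and -0.38 for Uqcrq.

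The 13 mt- members had log2 fold changes of 0.53 to 1.79 with 5-FU, with a median of 1.01, and 5 were called higher. Groups did not overlap for 7, against 9.27% of all genes tested for which 5-FU lay above PBS. mt-Nd4 measured 2161, 2631, 5923, 2765 and 2615 CPM in the 5-FU tumors, all above the highest PBS tumor, with a log2 fold change of 1.66 ± 0.54 (SE; adjusted p = 0.0329). 5-FU tumor 3 was the highest. The other 4 were mt-Nd4l at 1.79 ± 0.58 (SE; adjusted p = 0.0311), mt-Nd5 at 1.55 ± 0.56 (SE; adjusted p = 0.0495), mt-Nd6 at 1.5 ± 0.53 (SE; adjusted p = 0.0451) and mt-Nd2 at 1.16 ± 0.41 (SE; adjusted p = 0.0451). The 8 members that were not called had values from 0.53 for mt-Atp8 to 1.19 for mt-Nd1, among them every member outside complex I.

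Leaving out PBS tumor 1 or 2 moved the nuclear count with 5-FU to 38 or 18, where 7.04% or 4.14% of all genes tested were lower. The mt- count fell to 0 without PBS tumor 1, PBS tumor 2 or 5-FU tumor 3, where 3.43%, 3.73% and 5.94% of all genes were called higher. It fell to 1 to 3 without PBS tumor 3 or 4 or 5-FU tumor 2, 4 or 5, where 5.36% to 10.5% were. EdgeR called 0 nuclear and 0 mt- members without the 6 tumors rich in short transcripts, with an unadjusted p under 0.05 for 29 and 6 members and 19.4% of all genes. In that fit 0.513% of all genes were called lower and 0.235% higher. The members' medians were then -0.27 and 0.96. With the short transcript covariate, 8 nuclear and 13 mt- members were called, where 8.81% of all genes were lower and 14.4% higher, at medians of -0.22 and 1.78. DESeq2 on all 4 groups called 56 nuclear members lower and 5 mt- members higher, against 6.17% and 7.41% of all genes.

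In 5-FU+ICB tumors all 13 mt- members were called higher than with PBS. Their log2 fold changes ran from 1.36 to 2.56 with a median of 2.02, against -0.04 over all genes tested, of which 21.9% were called higher. For 6 of them no 5-FU+ICB tumor overlapped PBS, against 10.9% of all genes tested. mt-Nd4l measured 59.4, 39.2, 129 and 124 CPM in PBS tumors and 354, 175, 327, 203 and 1422 CPM in 5-FU+ICB tumors. Its log2 fold change of 2.56 ± 0.60 (SE; adjusted p = 0.00323) was the largest of the 13. mt-Nd5 and mt-Nd6 stood at 2.55 ± 0.58 (SE; adjusted p = 0.003) and 2.48 ± 0.55 (SE; adjusted p = 0.00258). In the complex IV core mt-Co1 was at 2.02, mt-Co2 at 2.16 and mt-Co3 at 1.98, while mt-Cytb of complex III was at 1.48, mt-Atp8 was at 1.49 and mt-Atp6 at 1.36.

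The library labelled 5-FU+ICB tumor 5, with almost no Msln, carried much of this rise. It had the highest value of all 28 tumors for each of the 13 mt- members, for example 62459 CPM of mt-Co1 where the other 4 of its group had 16091, 5886, 14149 and 10202. The same library had the highest Ckm level, 676 CPM, and mitochondrial rRNA of 2183 CPM for mt-Rnr1, against 43.7 to 413 CPM in 26 others and 1913 CPM in PBS tumor 1. Without it mt-Nd4l stood at 1.64, mt-Nd5 at 1.67, mt-Nd6 at 1.66, mt-Co1 at 1.10 and mt-Co2 at 1.18, all still called. mt-Co3 at 0.88, mt-Cytb at 0.71, mt-Atp6 at 0.64, mt-Nd3 at 0.63 and mt-Atp8 at 0.60 were then not called. In that fit 8 mt- members were called, with a median of 1.10, and 52 nuclear members were called against 34 with it, with a nuclear median of -0.59. Of all genes tested in the same fit 18% were lower and 18.8% higher. Without all 6 tumors rich in short transcripts edgeR called 0 mt- members and 4.99% of all genes higher, with an unadjusted p under 0.05 for 5 mt- members and 31.8% of all genes, and the mt- median was 1.02. The part of muscle or other tissue in the mt- levels of this library was not tested.

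Of the nuclear members 33 were called lower and 1 higher in 5-FU+ICB tumors, with a median log2 fold change of -0.46, against 18.7% of all genes tested called lower. Groups did not overlap for 14 of them, all lower, against 14.7% of all genes tested. The calls came to 17 of 38 in complex I, 1 of 4 in complex II, 5 of 8 in complex III, 3 of 17 in complex IV and 7 of 17 in complex V. Atp5s (chr12:69724950-69744660), coupling factor B of ATP synthase, had the largest fall, from 5.56, 7.76, 3.4 and 3.59 CPM with PBS to 2.57, 2.26, 2.43, 2.29 and 2.9 CPM, at -1.03 ± 0.29 (SE; adjusted p = 0.00861). Sdhb measured 127, 115, 129.9, 99.1 and 122 CPM and changed by -0.86 ± 0.20 (SE; adjusted p = 0.00287). Neither gene overlapped PBS. Ndufa7, Uqcr10 and Cox4i1 had the largest falls called in complexes I, III and IV among members with a mean of at least 50 counts, with ranges that overlapped PBS, at -0.93, -0.74 and -0.62 and adjusted p-values of 0.00393, 0.00659 and 0.0464. Ndufa4l2 was again the member called higher, with 5.29, 2.11, 3.36, 5.57 and 5.2 CPM and 1.31 ± 0.38 (SE; adjusted p = 0.0113). Without the library labelled 5-FU+ICB tumor 5 these values were -1.09 for Atp5s, -0.87 for Sdhb, -1.05 for Ndufa7, -0.86 for Uqcr10, -0.83 for Cox4i1 and 1.23 for Ndufa4l2, and each was still called. The nuclear count was 22 without PBS tumor 1, 10 without PBS tumor 2, 16 without 5-FU+ICB tumor 4 and 1 without the 6 tumors rich in short transcripts, where the nuclear median was -0.19. In these 4 fits 14.6%, 12%, 15.9% and 2.19% of all genes tested were lower.

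**Figure D4:**
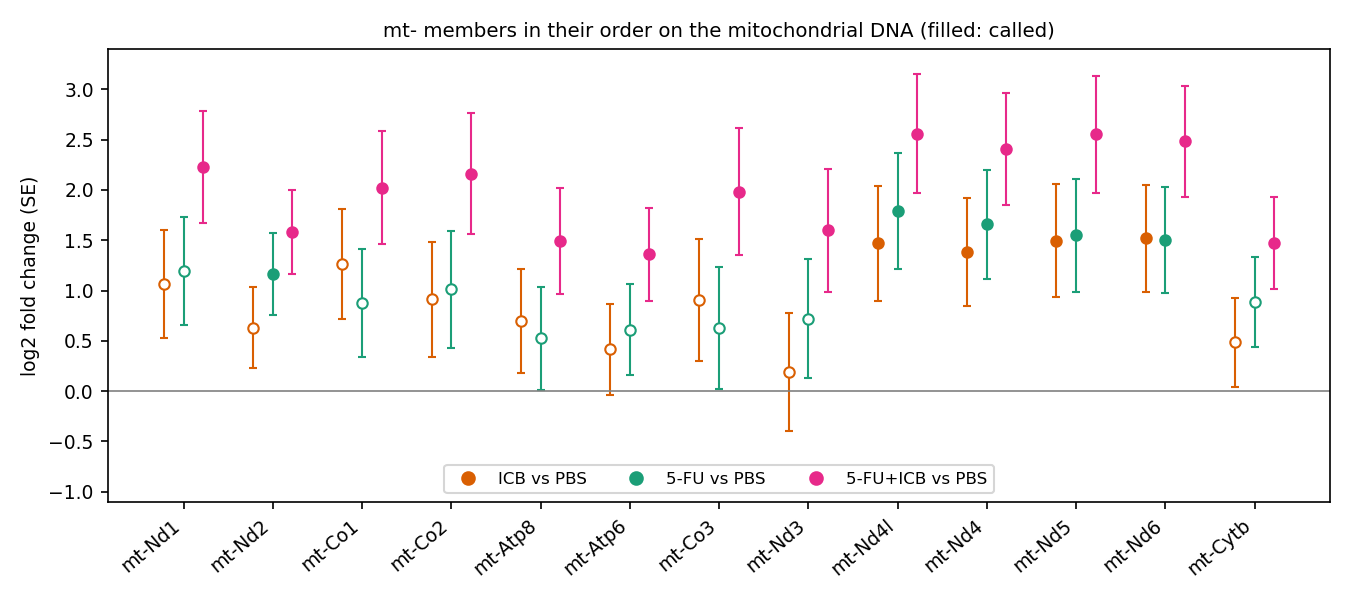
Log2 fold change against PBS with its SE (y axis) of the 13 mt- members in their order along mitochondrial DNA (x axis), for ICB, 5-FU and 5-FU+ICB. Filled points are called and open points are not. All values are above 0, and the genes from mt-Nd4l to mt-Nd6 have the largest values. Over all tumors the 5-FU+ICB values are the highest of the 3 for each gene. Without the library labelled 5-FU+ICB tumor 5 this order is lost for several genes. For example, mt-Nd4l, mt-Nd4, mt-Nd2, mt-Nd3 and mt-Cytb then stand at 1.64, 1.57, 0.95, 0.63 and 0.71, below their 5-FU values. mt-Co1, then at 1.10, stands below its ICB value.

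Cisplatin alone left the members where the test could not tell them from PBS. EdgeR called 0 nuclear and 0 mt- members, as it called 0.0% of the 17816 genes tested, and an unadjusted p under 0.05 was reached by 1 nuclear and 0 mt- members. DESeq2 called 0 and 0. Of the nuclear members 81 of 84 had a negative log2 fold change, with a median of -0.30 against -0.01 over all genes tested, and the mt- median was 0.01. Sdhb, for example, measured 99.2, 170.4, 129 and 217 CPM, at -0.48 ± 0.45 (SE; adjusted p = 1), and mt-Nd4 measured 2136, 920.1, 1169 and 721 CPM, at 0.24 ± 0.56 (SE; adjusted p = 1). Without the tumors rich in short transcripts edgeR called 0 and 0 members, with an unadjusted p under 0.05 for 14 nuclear and 0 mt- members and 4.88% of all genes and medians of -0.26 and 0.02. Cisplatin tumor 1 stood above the other 3 for mt-Nd4, and the groups overlapped for both genes.

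Cisplatin+ICB tumors differed from PBS in 1 nuclear member and 0 mt- members, where 1.4% of the genes tested were called lower and 4.69% higher. The nuclear call was Ndufa10 (chr1:92439010-92473860), a complex I accessory subunit, with 139, 119.9, 135 and 120.0 CPM in PBS tumors and 98.5, 76.9, 88.6, 84.5 and 86.2 CPM in cisplatin+ICB tumors, at -0.55 ± 0.14 (SE; adjusted p = 0.0286). Its groups did not overlap. An unadjusted p under 0.05 by edgeR was reached by 2 nuclear and 4 mt- members and by 23.6% of all genes. DESeq2 called 0 and 2 members, where it called 0.85% of all genes lower and 5.25% higher. Median log2 fold changes were -0.05 for nuclear and 0.62 for mt- members, against 0.03 over all genes tested.

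Cisplatin+ICB tumor 1 stood apart in this comparison. It held the highest level of 76 of the 84 nuclear members among all 28 tumors and the lowest level of 7 of the 13 mt- members. Cox4i1 measured 1796, 214, 243, 261 and 240.5 CPM in cisplatin+ICB tumors 1 to 5, and mt-Nd4 measured 238, 2517, 2494, 2566 and 2775 CPM. For both genes tumor 1 lay several-fold from the other 4, on opposite sides. Not every mt- member was low in it. mt-Nd3 measured 307, 108, 68.2, 113 and 150.5 CPM, with tumor 1 the highest of its group, and mt-Co3 measured 3285, 3024, 2294, 3279 and 3306 CPM, with tumor 1 within the range of the others. Its Msln level was 655 CPM against 130 to 266 CPM in the other 4 of its group, its T cell markers summed to 15.9 CPM against 27.6 to 219 CPM, its fibroblast markers to 314 CPM against 1406 to 1839 CPM and its neutrophil markers to 61.1 CPM against 9.37 to 25.5 CPM. Their part in the member values was not tested. Without this tumor 69 nuclear members were called lower and 9 mt- members higher, where 17.1% of all genes tested were called lower and 18.2% higher. Without all 6 tumors rich in short transcripts 14 nuclear and 0 mt- members were called, where 4.27% were lower and 8.11% higher, with medians of -0.37 and 0.81. Ndufa10 was not called without PBS tumor 1, 3 or 4 or cisplatin+ICB tumor 2, 4 or 5.

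The combinations were also compared with their parts, to ask what the second agent added. EdgeR called 0 members in each of these 4 comparisons. Against ICB, 5-FU+ICB tumors had a median log2 fold change of 0.11 for nuclear and 1.03 for mt- members. An unadjusted p under 0.05 was reached by 1 nuclear and 6 mt- members and 10.9% of all genes, DESeq2 called 0 of either, and 0.229% of all genes tested were called. The largest mt- values were 1.41 ± 0.56 (SE; adjusted p = 0.366) for mt-Nd3 and 1.25 ± 0.54 (SE; adjusted p = 0.403) for mt-Co2. Without the library labelled 5-FU+ICB tumor 5 these stood at 0.43 and 0.27, the mt- median was 0.19 and the nuclear median -0.04. Against 5-FU, where 0.0112% of the genes tested were called, the medians were 0.24 and 0.97, with an unadjusted p under 0.05 for 5 nuclear and 3 mt- members and 16.7% of all genes and 0 calls by DESeq2. Without the same library they were 0.09 and 0.07. Leaving out 5-FU+ICB tumor 2 gave 3 nuclear calls there, where 2.83% of all genes were lower and 8.08% higher.

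Against ICB, cisplatin+ICB tumors had medians of 0.44 for nuclear and -0.41 for mt- members, with 0.0% of the genes tested called. An unadjusted p under 0.05 was reached by 2 nuclear and 0 mt- members and 15.9% of all genes, and DESeq2 called 0 of either. The medians without the 6 tumors rich in short transcripts were -0.23 and -0.13, with the nuclear sign turned. Against cisplatin, where again 0.0% of the genes tested were called, the medians were 0.22 and 0.68. Here 6 mt- members, 1 nuclear member and 14.2% of all genes had an unadjusted p under 0.05 by edgeR. DESeq2 called 1 mt- and 0 nuclear members. The share of all genes that DESeq2 called is not given here, so its count cannot show whether mt- members stood out. mt-Co2 measured 1751, 1656, 1212 and 1124 CPM with cisplatin and 2002, 2994, 1878, 3221 and 3734 CPM with cisplatin+ICB. It was the mt- member whose groups did not overlap, against 1.18% of all genes tested for which cisplatin+ICB lay above cisplatin, at 0.95 ± 0.30 (SE; adjusted p = 0.156). Without cisplatin+ICB tumor 1, 4 nuclear and 6 mt- members were called, where 3.58% of all genes were lower and 8.31% higher. Without the tumors rich in short transcripts 0 and 0 were called, with an unadjusted p under 0.05 for 8 and 7 members and 18.6% of all genes and medians of -0.12 and 0.75, so that the nuclear sign turned.

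The interaction of 5-FU and ICB, the effect of adding 5-FU to ICB minus that of 5-FU alone, was positive for 78 of the 84 nuclear members. Its median was 0.79 on the log2 scale, and 0.63 without the library labelled 5-FU+ICB tumor 5, against 0.03 over all genes tested. The medians against PBS were -0.55 for ICB, -0.70 for 5-FU and -0.46 for the combination. EdgeR called 0 nuclear and 0 mt- members, as it called 0.0893% of all genes tested, while an unadjusted p under 0.05 was reached by 66 nuclear and 0 mt- members and by 23.9% of all genes tested. DESeq2 called 29 nuclear members higher (2.38% of all genes) and edgeR 26 with Ckm as a covariate (5.93%). Leaving out PBS tumor 3, PBS tumor 4 or 5-FU+ICB tumor 4 gave 48, 35 and 28 nuclear calls, all higher, where 6.53%, 4.2% and 3.44% of all genes tested were called higher. Without the 6 tumors rich in short transcripts the nuclear median was 0.23 and 0 members were called, 13 with an unadjusted p under 0.05 against 11.6% of all genes. The mt- median was -0.03 over all tumors, -0.85 without the library labelled 5-FU+ICB tumor 5 and -0.81 without the 6 tumors. For cisplatin and ICB the interaction medians were 0.73 for nuclear and -0.34 for mt- members, and edgeR and DESeq2 each called 0, with 0 members at an unadjusted p under 0.05 in either tool and 0.0% of the genes tested called. Without the tumors rich in short transcripts they were 0.02 and -0.16, with 0 called and an unadjusted p under 0.05 for 2 nuclear and 0 mt- members and 5.86% of all genes.

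Levels between genes were compared per kilobase of longest transcript. Median CPM per kb over the 28 tumors was 5442 for mt-Co1, 4789 for mt-Atp6 and 747 for mt-Nd5. Among nuclear members the highest medians were 556 CPM per kb for Atp5b, the catalytic beta subunit of ATP synthase, and 382 for Cox4i1. The spread over tumors differed between mt- genes. The highest library, labelled 5-FU+ICB tumor 5, exceeded the lowest 9.63-fold for mt-Atp6, 17.1-fold for mt-Co1, 61.2-fold for mt-Nd4 and 104-fold for mt-Nd4l. In mt-Nd4 and mt-Nd4l the lowest tumor was cisplatin+ICB tumor 1, which is rich in short transcripts.

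Some mt- levels depend on how reads were shared with near-identical nuclear copies of mitochondrial DNA. Of the 31-base words of mt-Co2, 99.5% also occur in Gm28661, and of mt-Co3 99.9% occur in Gm28437. The values were 99.5% for mt-Atp6 with Gm10925, 98.1% for mt-Nd3 with Gm28438 and 98.9% for mt-Nd4l with Gm10222, which had 0 counts. The copy took 2.40% to 43.6% of the pair's counts for mt-Co2, 0.254% to 41.2% for mt-Nd3 and 2.44% to 40.01% for mt-Atp6, so the levels of these genes are uncertain by that much. With the copies' counts added back, 4 mt- members were called with ICB, 5 with 5-FU and 12 with 5-FU+ICB. In these fits 18.9%, 9.98% and 21.9% of all genes tested were called higher. Among nuclear members, Ndufb4c and Cox6c2 share 100% and 61.7% of their words with Ndufb4 and Cox6c, and their values are uncertain.

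Ckm, the muscle form of creatine kinase, was used as a check on muscle RNA from the flank. It measured 10.2, 28.8, 9.87 and 20.3 CPM in PBS tumors, 1.26, 19.0, 503, 0.609 and 4.31 CPM in ICB tumors and 159.7, 0.791, 176, 121 and 167 CPM in 5-FU tumors. In cisplatin tumors it was 38.5, 24.3, 9.89 and 25.0 CPM, in 5-FU+ICB tumors 62.3, 0.651, 96.1, 54.2 and 676 CPM and in cisplatin+ICB tumors 17.8, 31.5, 103, 14.9 and 101 CPM. Every group overlapped every other, and the spread was wide within ICB, 5-FU and 5-FU+ICB tumors. None of the 14 skeletal muscle markers was called against PBS with ICB or 5-FU, although all 14 had positive log2 fold changes, and 2 were called higher with 5-FU+ICB. The summed markers ranged over 137 to 235 CPM with PBS, 4.6 to 4400.0 with ICB, 13.7 to 2057 with 5-FU, 141 to 422 with cisplatin, 4.46 to 6827 with 5-FU+ICB and 112 to 1215 with cisplatin+ICB.

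The muscle isoforms Cox8b and Cox6a2 of complex IV rose and fell with Ckm across tumors. Over the 28 tumors, log2 Ckm correlated with Cox8b (Pearson r = 0.98, Spearman rho = 0.97) and Cox6a2 (r = 0.93, rho = 0.93), each with a permutation p of 1e-05, the smallest that 100000 resamples can give, and an adjusted p of 4e-05 over the 8 genes of the family. For Cox6a1, Cox7a2 and Cox8a r was between -0.069 and -0.0025, with permutation p-values of 0.99, 0.732 and 0.789. Cox7a1, though also a muscle isoform, had r = 0.25 (permutation p = 0.192, adjusted p = 0.306), 0.40 after subtracting group means (permutation p = 0.036, adjusted p = 0.0718) and 0.17 without the library labelled 5-FU+ICB tumor 5. Without the 2 tumors farthest from the median of Ckm, ICB tumor 4 and 5-FU+ICB tumor 2, r was 0.98 for Cox8b and 0.91 for Cox6a2, and after subtracting group means it was 0.98 and 0.97. Cox8b measured 0.162, 0.61, 0.0723 and 0.365 CPM in PBS tumors, 2.0, 0, 2.76, 1.77 and 2.87 in 5-FU tumors and 1.04, 0, 1.66, 1.18 and 11.6 in 5-FU+ICB tumors. Cox8b was thus high in tumors of several groups and near 0 in others of the same groups, and neither it nor Cox6a2 was called in any comparison with PBS.

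Of the mt- members only mt-Co1 and mt-Cytb were set against Ckm, and their link with it was weaker. mt-Co1 had r = 0.43 (permutation p = 0.0251, adjusted p = 0.067) and rho = 0.41 (adjusted p = 0.067), and mt-Cytb r = 0.40 (permutation p = 0.0339, adjusted p = 0.0678) and rho = 0.49 (adjusted p = 0.025). After subtracting group means r was 0.57 for mt-Co1 (permutation p = 0.00241, adjusted p = 0.00643) and 0.39 for mt-Cytb (permutation p = 0.0449, adjusted p = 0.0718). Without the 2 tumors farthest from the median of Ckm the values were 0.45 and 0.46, and without the library labelled 5-FU+ICB tumor 5 they fell to 0.29 and 0.25 (permutation p = 0.149 and 0.21, adjusted p = 0.397 and 0.42). For Cox8b and Cox6a2 r was 0.98 and 0.92 without it. With Ckm as a covariate the mt- median was 1.08 for ICB, 0.71 for 5-FU and 1.49 for 5-FU+ICB, with 6, 3 and 11 mt- members called, where 22.7%, 9.62% and 20.6% of all genes tested were higher.

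**Figure D5:**
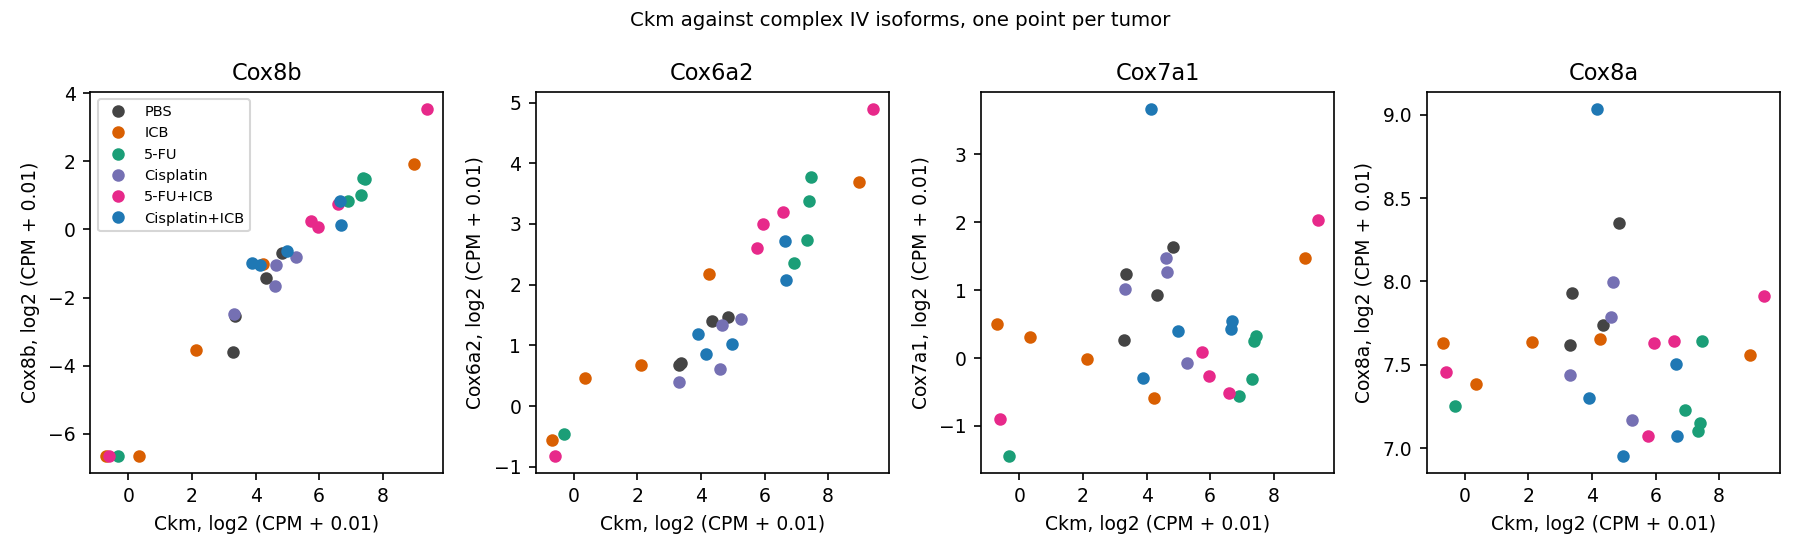
Level of complex IV isoforms (y axes, log2 of CPM + 0.01) against Ckm (x axis, log2 of CPM + 0.01), 1 point per tumor, colored by treatment. Cox8b and Cox6a2 rise with Ckm (r = 0.98 and 0.93), while Cox7a1 (r = 0.25) and Cox8a (r = -0.053) show no such line.

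Cox4i2, the hypoxia-responsive form of subunit 4, measured 0.487, 0.949, 0.542 and 0.399 CPM in PBS tumors and 1.34, 0.248, 1.91, 1.33 and 4.25 CPM in 5-FU+ICB tumors. The library labelled 5-FU+ICB tumor 5 was the highest, and without it the log2 fold change was 1.02. The log2 fold change of 1.61 ± 0.66 (SE; adjusted p = 0.0526) missed the threshold, where that of Cox4i1 was -0.62 and was called. Cox7a2 was called lower in all 3, at -0.65 ± 0.20 (SE; adjusted p = 0.0151) with ICB, -0.78 ± 0.20 (SE; adjusted p = 0.0118) with 5-FU and -0.59 ± 0.20 (SE; adjusted p = 0.0226) with 5-FU+ICB (-0.72 without the library labelled tumor 5). Cox6a1 was called lower with ICB and 5-FU, at -0.60 and -0.77, and Cox8a with 5-FU, at -0.65. The longest transcripts of Cox7a2, Cox6a1 and Cox8a have 659, 620 and 550 nt. Cox7a2 measured 179 and 226 CPM in PBS tumors 1 and 2, which are rich in short transcripts, and 124 and 120 CPM in PBS tumors 3 and 4. ICB tumor 5 (120 CPM) and 5-FU+ICB tumor 5 (142 CPM) were not below PBS tumor 4. For Cox8a 5-FU tumor 3 (199.8 CPM) was above PBS tumor 3 (196.3 CPM). The part of transcript length in these falls was not tested. Cox6b2, the testis form of subunit 6b, stayed below 1 CPM in every tumor and was called in no comparison with PBS.

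The genes around the chain were taken from 5 lists, and their counts stand against 18.8%, 13.0% and 18.7% of all genes tested that were called lower with ICB, 5-FU and 5-FU+ICB. Of 46 assembly factors and electron carriers, 26 were lower and 1 higher with ICB, 26 lower with 5-FU and 22 lower and 1 higher with 5-FU+ICB, with medians of -0.60, -0.56 and -0.47. Of 23 tested genes that copy, transcribe or process mitochondrial DNA and RNA, 14, 9 and 15 were lower in the same order (medians -0.59, -0.56 and -0.62) and 0 were higher. Of 13 tricarboxylic acid cycle genes 7 were lower in each, with medians of -0.53, -0.54 and -0.50, and of 9 genes of the import machinery, porins and chaperones fixed as a list for mitochondrial mass, 5, 2 and 5 were lower (medians -0.60, -0.45 and -0.52). The nuclear regulators Nrf1, Gabpa, Gabpb1, Esrra, Yy1, Ppargc1a, Ppargc1b and Pprc1 had medians of -0.07, -0.10 and -0.06. With ICB 0 of these 8 were lower and 1, Ppargc1b, was higher, with 5-FU 1 was lower, and with 5-FU+ICB 1 was lower. Without the 6 tumors rich in short transcripts, 7, 0 and 2 of the assembly factors and carriers were lower in the same order, 3, 0 and 0 of the mitochondrial DNA and RNA genes, 2, 1 and 0 of the tricarboxylic acid cycle genes and 2, 0 and 0 of the mitochondrial mass list, where 8.72%, 0.513% and 2.19% of all genes tested were lower, with medians of the 4 lists between -0.43 and -0.18. Without the library labelled 5-FU+ICB tumor 5, 25, 13, 8 and 4 genes of these lists were lower with 5-FU+ICB, where 18% of all genes were. With cisplatin 0 genes of the 5 lists were called, and with cisplatin+ICB 2 of the mitochondrial mass list were lower.

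Markers of other cells moved in the same comparisons. The 4 leukocyte markers (Ptprc, Cd52, Laptm5 and Coro1a) summed to 435 to 536 CPM with PBS, 1142 to 2723 with ICB, 492 to 1906 with 5-FU and 569 to 4055 with 5-FU+ICB, and 3, 1 and 4 of the 4 were called higher. All 4 T cell markers were called higher with ICB and with 5-FU+ICB and 3 of 4 with 5-FU. Macrophage markers summed to 996 to 1363 CPM with PBS and 2009 to 5356 CPM with ICB, where all 4 were called higher, as were 1 of 4 with 5-FU and 2 of 4 with 5-FU+ICB. Msln measured 327, 358, 289 and 271 CPM with PBS, 122, 52.0, 57.5, 217 and 95.6 with ICB, 133, 177, 45.0, 118 and 66.7 with 5-FU and 34.4, 167, 67.8, 53.4 and 0.50 with 5-FU+ICB, and all of these treated tumors lay below the PBS range. EdgeR called Msln lower with 5-FU+ICB (-2.28 ± 0.77, adjusted p = 0.0238) but not with ICB (-1.51 ± 0.76, adjusted p = 0.117) or 5-FU (-1.54 ± 0.76, adjusted p = 0.136). Of the other 3 line markers tested, Wt1 was called higher in all 3 comparisons and Krt19 higher with 5-FU+ICB, while Krt8 was not called. The Krt19 log2 fold change was 5.74, and 1.95 and not called without the library labelled tumor 5, where Wt1 and Msln were still called. Of 6 adipocyte markers 0, 0 and 2 were called higher, of 3 fibroblast markers 0, 3 and 2, and of the 3 keratinocyte markers tested and 2 proliferation markers 0 in each. Of the 2 neutrophil markers tested 1 was called higher with ICB and 0 with 5-FU or 5-FU+ICB. Of the brown adipocyte markers, Ucp1 was at most 0.40 CPM in any tumor and Cidea reached 2.14 CPM in ICB tumor 2, the tumor with the highest keratinocyte sum. With cisplatin+ICB 2 of 4 leukocyte, 3 of 4 T cell, 1 of 4 macrophage and both tested neutrophil markers were called higher. The part of a changed cell mixture in the member values was not tested.

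The promoters of the nuclear members were examined in RefSeq's windows of GRCm38.p6, which run from 250 bases before to 50 after the start. A window was found for 65 of the 84 nuclear members. The motif GCGCATGC, bound by nuclear respiratory factor 1 (NRF1), was present on either strand in 10 of 65 (15.4%) against 3.05% of all 27025 genes with a window. AAGATGGC, bound by YY1, was in 9 (13.8% against 3.19%), and CCGGAAGT, bound by GABPA, was in 5 (7.69% against 4.31%). At least 1 of the 3 was in 23 windows (35.4% against 9.91%). The motif CAGCTG, an E-box that reads the same on both strands and is typical of muscle genes, was in 6 windows, or 9.23% against 18.3%. A match describes letters only.

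The following 4 windows are examples of 3 common subunits and 1 muscle subunit, with the motif letters in capitals and each read 5′ to 3′ on the gene's strand. Sdhb (chr4:140961021-140961320, plus strand) was called lower with ICB, 5-FU and 5-FU+ICB and holds the NRF1 letters in reverse. Cox6a1 (chr5:115348909-115349208, minus strand) holds NRF1 letters on both strands in matches that overlap each other, and Cox8a (chr19:7217567-7217866, minus strand) holds the GABPA letters at 2 places. Cox8b (chr7:140900397-140900696, minus strand), which followed Ckm, holds none of these 3 and carries the E-box at 2 places. The E-box letters were also in the windows of the common subunits Ndufa8, Ndufb10, Ndufs5, Ndufv2 and Atp5b, of which Ndufa8 holds NRF1 letters too, and were not in that of the muscle isoform Cox7a1.
Sdhb: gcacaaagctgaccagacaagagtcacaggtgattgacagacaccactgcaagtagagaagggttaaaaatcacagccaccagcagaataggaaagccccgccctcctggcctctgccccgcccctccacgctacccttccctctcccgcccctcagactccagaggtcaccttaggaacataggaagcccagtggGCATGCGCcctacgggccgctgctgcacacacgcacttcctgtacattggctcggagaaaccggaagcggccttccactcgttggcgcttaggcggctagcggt
Cox6a1: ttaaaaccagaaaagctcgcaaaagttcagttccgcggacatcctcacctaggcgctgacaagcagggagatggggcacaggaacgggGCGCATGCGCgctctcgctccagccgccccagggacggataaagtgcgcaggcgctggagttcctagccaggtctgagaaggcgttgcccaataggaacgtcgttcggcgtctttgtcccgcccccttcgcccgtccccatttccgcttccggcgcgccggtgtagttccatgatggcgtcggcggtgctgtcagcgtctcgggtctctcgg
Cox8a: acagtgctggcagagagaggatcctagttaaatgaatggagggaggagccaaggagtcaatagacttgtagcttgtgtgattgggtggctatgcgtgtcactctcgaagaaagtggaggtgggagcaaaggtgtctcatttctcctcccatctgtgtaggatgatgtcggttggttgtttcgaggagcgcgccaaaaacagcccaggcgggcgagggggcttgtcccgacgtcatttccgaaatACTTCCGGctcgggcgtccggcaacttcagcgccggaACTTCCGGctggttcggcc
Cox8b: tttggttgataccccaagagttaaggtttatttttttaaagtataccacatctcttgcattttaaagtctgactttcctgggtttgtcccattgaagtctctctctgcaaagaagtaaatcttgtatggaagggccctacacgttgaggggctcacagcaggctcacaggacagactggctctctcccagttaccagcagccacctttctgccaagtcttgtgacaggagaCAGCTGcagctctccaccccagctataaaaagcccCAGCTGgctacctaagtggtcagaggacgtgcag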

How the data were processed

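RNA of 28 whole tumors was sequenced by the authors as 100-base single-end reads, and per the labels and methods transcripts were quantified with kallisto 0.46.0, summed to genes with tximport and annotated on GRCm38 (mm10), after bcl2fastq 2.20.0.422. The authors deposited expected counts in 2 matrices of 55341 genes, a 5-FU and a cisplatin matrix, which share the 9 PBS and ICB tumors with identical values. Of the values 23.7% were not whole and were rounded for the count tests. A further 26 gene names were turned into dates, and 4 entries that carried such a name more than once were left out.

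Each matrix was fitted with edgeR 4.0.16 in R 4.3.3 (TMM scaling, filterByExpr by group, quasi-likelihood test on its 4 groups, Benjamini-Hochberg over all genes tested). A gene was called at adjusted p under 0.05 with a log2 fold change beyond 0.5 in either direction. ICB against PBS came from the 5-FU matrix. Interaction means the effect of adding a chemotherapy to ICB minus its effect over PBS. CPM values were TMM-scaled over 28 tumors. Errors of fold changes are SE. Single-gene examples were those with the largest change called in each complex, in either direction, among members with a mean of at least 50 counts. Other examples were mt- members called, though not all of them in each comparison, Ckm and the complex IV isoforms. DESeq2 1.42.0, other scalings and filters, covariates, other sets of groups, a replicate block and leaving out each tumor were alternatives. The edgeR and correlation scripts were tested on simulated data. The labels name separate tumors and give no batch. Totals of 23541733 to 33950805 counts set the precision, and intervals cover counting error only. Positions are GENCODE's on GRCm38, and copies were sought as shared 31-base words of transcripts. The members and lists were chosen with earlier results of these data known. Columns belonging to no sample numbered 0.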

Additional observations from a re-analysis of the deposited data

Results flagged for a closer look

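Single tumors were checked in 168 sets of values (a measure in a group of 4 or 5 tumors) for 1 lying far from the rest by Dixon's test at 95%, which by chance marks about 1 in 20 sets, and 33 were marked. Gene values below are log2 of CPM + 0.01.

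Cisplatin+ICB tumor 1 had 17 of them. Its mt- share was 1.01%, its nuclear member share 2.08%, its log2 ratio of mt- to nuclear counts -1.05 and its short transcript share 16.0%. Nuclear members were high in it, with Cox4i1 at 10.81, Ndufa4 at 9.05, Cox6a1 at 9.13, Cox7a1 at 3.67, Cox7a2 at 8.78 and Cox8a at 9.03. Members of mitochondrial DNA were low, with mt-Co1 at 11.84, mt-Cytb at 10.34, mt-Nd1 at 9.06, mt-Nd2 at 8.98, mt-Nd4 at 7.90, mt-Nd4l at 3.78 and mt-Nd5 at 8.37.

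5-FU tumor 3 was high in its mt- share (6.71%) and in its short transcript share (7.15%), and in mt-Co1 (14.28), mt-Co3 (12.87), mt-Nd1 (12.29), mt-Nd4 (12.53), mt-Nd5 (11.86) and Cox8a (7.64). The library labelled 5-FU+ICB tumor 5, which almost lacks Msln, stood out with a mt- share of 15.7% and a short transcript share of 11.4%. Cisplatin tumor 1 was high in its mt- share (2.74%) and in mt-Atp8 (4.55). 5-FU tumor 2 was low in Ckm (-0.32) and Cox8b (-6.64), ICB tumor 4 was low in its short transcript share (6.37%) and cisplatin+ICB tumor 3 was low in mt-Co3 (11.16).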

How the results depend on the processing

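The mt- to nuclear ratio stayed within 1 SD of its value in 34 of 36 cases other than single tumors left out, and moved by more without the tumors over 8% short transcripts for ICB (0.97) and 5-FU+ICB (1.08) against PBS. Its sign turned for cisplatin+ICB against ICB (to 0.13) without those tumors or cisplatin+ICB tumor 1 alone, and for cisplatin against PBS (to -0.038) without cisplatin tumor 1. Counts of members called moved more. With no filter on low counts, nuclear and mt- calls were 26 and 2 for ICB, 32 and 2 for 5-FU, 17 nuclear for 5-FU+ICB and 0 nuclear for cisplatin+ICB. With the short transcript covariate they were 10 and 11, 8 and 13, 11 nuclear, and 6 and 4 in the same order, and 2 and 4 for cisplatin+ICB against cisplatin. Without the 6 tumors rich in short transcripts they were 3 and 0, 0 and 0, 1 and 0, and 14 nuclear. With all 6 groups in 1 model they were 8 and 1, 2 and 0, and 10 nuclear. With only the groups compared, 9 mt- for ICB, 9 nuclear and 8 mt- for 5-FU+ICB and 0 nuclear for cisplatin+ICB were called, and ICB gave 4 nuclear calls in the cisplatin matrix. With the Ckm covariate 5-FU gave 3 mt- calls and the interaction of 5-FU and ICB 26 nuclear calls, where DESeq2 gave 29. For cisplatin+ICB against PBS DESeq2 gave 0 nuclear and 2 mt- calls, and DESeq2 size factors or at least 10 counts in every tumor gave 0 nuclear calls. The shares of all genes that DESeq2 called against PBS are given with that comparison above. Against cisplatin DESeq2 gave 1 mt- call, for which no share over all genes is given. The cause of the moved counts was not tested. Over all genes tested, the shares lower and higher with no filter were 6.44% and 9.7% for ICB, 3.12% and 3.81% for 5-FU, 6.44% and 11.5% for 5-FU+ICB and 0.119% and 1.64% for cisplatin+ICB, and with the short transcript covariate 22.2% and 24.7% for 5-FU+ICB, 8.72% and 10.8% for cisplatin+ICB and 3.17% and 5.96% for cisplatin+ICB against cisplatin. With only the groups compared they were 19.7% and 20.7% for ICB, 11.3% and 18.8% for 5-FU+ICB and 0% and 0% for cisplatin+ICB.

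Leaving out each tumor gave 16 to 56 nuclear and 0 to 4 mt- calls for ICB, 18 to 66 and 0 to 5 for 5-FU, 10 to 52 and 8 to 13 for 5-FU+ICB, 0 to 69 and 0 to 9 for cisplatin+ICB against PBS, 0 to 3 nuclear for 5-FU+ICB against 5-FU, 0 to 4 and 0 to 6 for cisplatin+ICB against cisplatin, and 0 to 48 nuclear for the interaction of 5-FU and ICB. The shares of all genes called moved too, as the fits without single tumors in each comparison above show. These ranges alone therefore cannot show that members depended more on single tumors than other genes did. The log2 fold change of mt-Nd3 with ICB turned to -0.17 with a replicate block and lay between -0.032 (without ICB tumor 3) and 0.43 (without ICB tumor 2) as single tumors were left out. The correlations of Ckm with Cox6a1 and Cox8a turned to 0.043 and 0.039 after subtracting group means, and those with mt-Co1 (0.45 and 0.57) and mt-Cytb (0.46) passed the threshold without the 2 farthest tumors or, for mt-Co1, after subtracting group means.

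Correlations between the deviations of tumors with the same replicate number ran from -0.63 to 0.66. With 4 or 5 pairs per comparison, this range cannot show whether the numbers pair tumors. The replicate block gave 0 nuclear calls for cisplatin+ICB against PBS and moved no other count by over 1.5 times. PBS and cisplatin hold 4 tumors each, which limits the comparisons that use them.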
